A study of Mus musculus with 6 samples.

Results

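The genes described here are 10 factors of the PIWI-interacting RNA (piRNA) pathway, taken by their symbols from a table of 54232 genes that was counted in testes of mice at postnatal day 4. They are the PIWI protein genes Piwil2 and Piwil4, the piRNA biogenesis genes Mov10l1, Pld6, Tdrkh, Asz1, Mael, Gtsf1 and Henmt1, and the silencing factor gene Tex15. The study set 3 testis samples with the genotype Dis3l2 cKO (a conditional knockout) against 3 with the genotype Dis3l2 WT, all at day 4 and all with the strain given as B6D2F1 inbred. Dis3l2 encodes an exoribonuclease that digests RNAs with an oligouridine tail. The labels name no Cre driver, no deleted exons and no number of animals per sample, so a p-value here speaks only of how much these samples vary, and some of that may be technical.

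piRNAs are small RNAs of germ cells that guide PIWI proteins to matching transcripts, above all those of retrotransposons. Long precursors are bound by a helicase, cut at the surface of mitochondria, trimmed and methylated at the 3′ end, and loaded onto a PIWI protein, partly in the perinuclear granules called nuage. In fetal mouse male germ cells the nuclear PIWI protein MIWI2 also directs DNA methylation of young retrotransposons, and male mice that lack any of several of these factors are sterile. At day 4 the testis cords hold Sertoli cells and spermatogonia or their gonocyte precursors, so that the pathway is read here in a minority of the cells of the organ.

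All 10 transcripts had a lower mean level in cKO testes than in WT testes, by unequal amounts. In the edgeR quasi-likelihood test with adjusted p under 0.05, 8 of the 10 fell, against 4.94% of the 20153 genes tested. The members and the other lists used below were chosen with earlier results of these data known, so such shares are no independent check. No member rose (0 in edgeR, 0 at an unadjusted p under 0.05, and 0 in DESeq2 and in limma-voom). The 10 genes had a median log2 fold change (cKO over WT) of -0.73, and all genes tested one of 0.01. Tex15, Asz1 and Gtsf1 fell to 43.1%, 45.3% and 50.8% of their WT level, and Mov10l1 and Tdrkh to 69.1% and 71.1%. Pld6 and Henmt1 had log2 fold changes of -0.75 and -0.51 and were not called. All 10 passed the filter on low counts, and in all 10 the highest cKO library lay below the lowest WT library, a pattern seen in 14.6% of all genes tested. In whole testes, fewer germ cells and less of a transcript per germ cell cannot be told apart.

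The libraries held 26126694 to 35390560 counts in cKO and 35750784 to 43265614 in WT. Dis3l2 itself averaged 31.72 ± 1.65 CPM (reads scaled to the size of the library, with TMM factors) in cKO and 31.95 ± 0.93 in WT (SD, n = 3 each), and whole-gene counts do not check a deletion of part of a gene. Of 14 general germ cell markers tested (such as Dazl, Sall4 and Usp26, with no gene of the piRNA lists), 10 fell in edgeR, with a median log2 fold change of -0.54. Their summed level ran from 721 to 791 CPM in cKO and from 1172 to 1218 CPM in WT. Of 10 undifferentiated and 6 differentiating spermatogonia markers, 5 and 4 fell. Of 12 Sertoli cell markers 3 rose, against 3.4% of genes tested, and their summed level ran from 7388 to 8149 CPM in cKO and from 6619 to 6763 CPM in WT. Of 6 macrophage markers 4 rose, with a summed level of 90.0 to 95.2 CPM in cKO and 66.4 to 72.6 CPM in WT. Of 6 Leydig cell markers 3 rose, with a summed level of 476 to 526 CPM in cKO and 428 to 440 CPM in WT, and of 5 endothelial markers 1 rose. Of 6 stroma markers 2 fell. Among the cKO libraries, replicate 1 stood apart in the summed level of the stroma markers, at 11197 CPM against 8215 and 8288 CPM. That value lay within the WT range of 10873 to 11762 CPM, and the other cKO libraries lay below that range. The summed level of 5 peritubular myoid markers was 1875 CPM in cKO replicate 1. It was 1400 and 1419 CPM in the other cKO libraries and 1505 to 1564 CPM in WT. Without cKO replicate 1 the same test called 8 members lower. The part of these other cell types in the results was not tested.

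The promoters are shown as a description, and any part of them in the falls was not tested. Of the 10 members, 8 had an entry in the RefSeq promoter table used here (GRCm38.p6, 250 bases before to 50 after a transcript start). Piwil2 and Tex15 had none. The 10 windows of these 8 genes (2 each for Piwil4 and Pld6) were searched on both strands for CACGTG, the E-box read by MAX and its partners, for GGCGGGAA, a form of the E2F site, and for the palindromic site of NRF1. MAX with MGA and E2F6 belong to a Polycomb complex that holds germline genes silent in mouse embryonic stem cells. CACGTG stood in 3 of the 10 windows, those of Mael, Mov10l1 and 1 window of Pld6, and in 7.15% of the 32851 promoter windows of the table. The other motifs were found in 0 of the 10 windows, and in 2.19% and 0.97% of all windows. A match of letters is a description, not a binding site. The 3 windows with the motif (in capitals) are shown, with that of Asz1, which had the largest fall among the genes with a window and held none of the 3 motifs.
Mael (chr1:166238695-166238994, minus strand): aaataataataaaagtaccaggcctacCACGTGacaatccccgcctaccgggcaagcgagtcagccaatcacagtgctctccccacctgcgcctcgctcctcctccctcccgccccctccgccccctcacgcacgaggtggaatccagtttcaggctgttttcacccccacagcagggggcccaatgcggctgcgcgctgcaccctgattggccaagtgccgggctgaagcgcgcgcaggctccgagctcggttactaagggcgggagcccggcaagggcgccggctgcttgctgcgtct
Mov10l1 (chr15:88982744-88983043, plus strand): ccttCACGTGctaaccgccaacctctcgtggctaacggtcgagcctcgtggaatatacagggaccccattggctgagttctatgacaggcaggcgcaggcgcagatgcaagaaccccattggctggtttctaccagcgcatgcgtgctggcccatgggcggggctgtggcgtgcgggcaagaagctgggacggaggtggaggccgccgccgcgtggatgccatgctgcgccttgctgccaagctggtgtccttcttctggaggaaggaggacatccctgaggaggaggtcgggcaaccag
Pld6 (chr11:59787608-59787907, minus strand): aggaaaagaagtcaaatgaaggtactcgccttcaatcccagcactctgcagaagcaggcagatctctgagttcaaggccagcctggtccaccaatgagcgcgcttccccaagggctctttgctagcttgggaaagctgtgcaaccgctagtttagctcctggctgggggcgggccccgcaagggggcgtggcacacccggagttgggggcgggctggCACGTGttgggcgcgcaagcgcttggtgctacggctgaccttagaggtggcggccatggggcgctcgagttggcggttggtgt
Asz1 (chr6:18109012-18109311, minus strand): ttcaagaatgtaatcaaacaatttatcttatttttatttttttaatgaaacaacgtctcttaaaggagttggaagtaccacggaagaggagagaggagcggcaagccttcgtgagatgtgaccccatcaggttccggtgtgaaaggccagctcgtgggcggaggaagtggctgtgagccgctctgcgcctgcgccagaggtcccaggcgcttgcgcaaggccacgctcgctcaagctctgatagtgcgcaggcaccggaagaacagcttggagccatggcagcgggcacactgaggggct
Counted from the transcript start, the motif began at position -223 in Mael, -246 in Mov10l1 and -33 in Pld6. Of these 3 genes Mael and Mov10l1 fell and Pld6 was not called. The median GC content of the 10 windows was 61.2%, against 52.7% over the whole table, and the median ratio of observed to expected CpG was 0.68 against 0.38. CACGTG itself holds a CpG, and its share of 7.15% is over all windows, not over windows of like composition. The second start of Piwil4, inside the gene, had a CpG ratio of 0.

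The 2 PIWI genes fell by nearly the same factor from very different levels. Piwil2 (chromosome 14, 70372477 to 70429383, minus strand, GRCm38) encodes MILI, the cytoplasmic PIWI protein present in male germ cells from fetal life on. It had 33.56, 38.68 and 42.45 CPM in cKO replicates 1, 2 and 3, against 66.27, 60.18 and 62.74 CPM in the WT replicates. All cKO values lay well below all WT values, and cKO replicate 1 was the lowest. On the log2 scale cKO over WT was -0.72 (SE 0.08, adjusted p = 0.000312 in edgeR). Piwil4 (chromosome 9, 14696230 to 14740733, minus strand) encodes MIWI2, which enters the nucleus of fetal prospermatogonia. It had 3.47, 3.57 and 3.18 CPM in cKO, against 6.12, 5.87 and 4.94 CPM in WT, from 91 to 257 reads per library. The groups did not overlap, and WT replicate 3 was the closest to cKO. On the log2 scale cKO over WT was -0.73 (SE 0.15, adjusted p = 0.0107 in edgeR), and the call was lost without WT replicate 1 (0.0586) or WT replicate 2 (0.0634). The log2 ratio of Piwil2 to Piwil4 differed by -0.01 between cKO and WT, and the groups overlapped (exact two-sided permutation test over 6 libraries, 1 of 45 such pairs, adjusted p = 1.0).

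**Figure D1:**
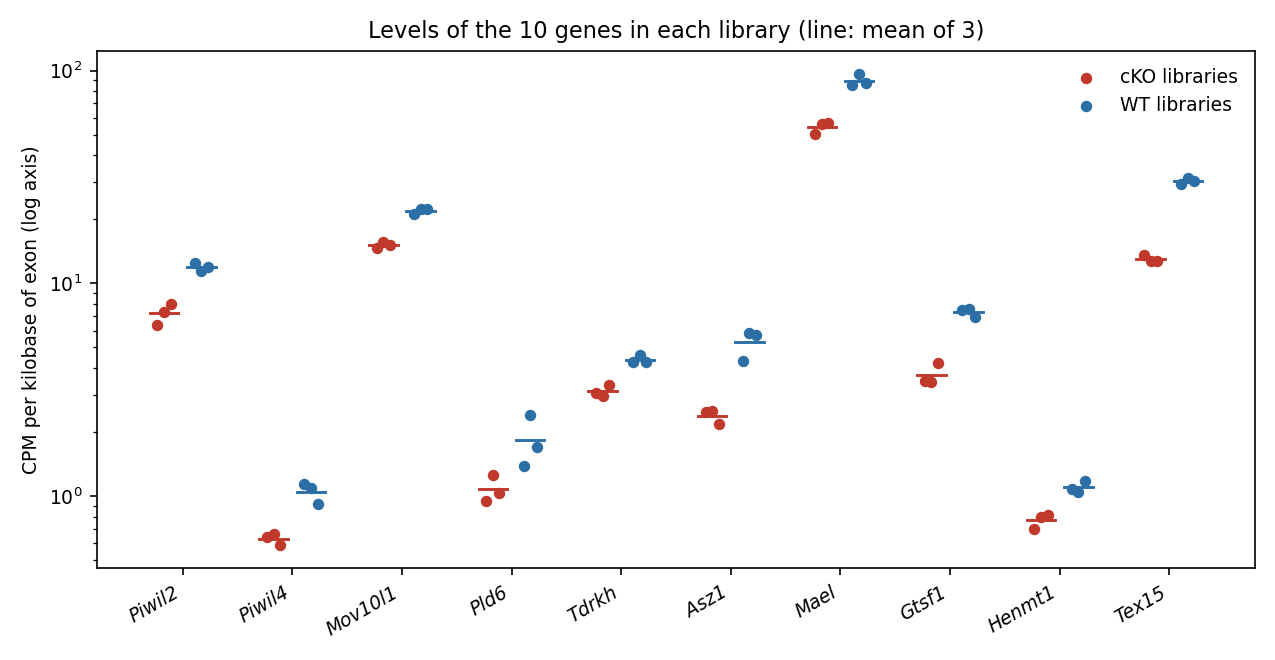
Level of each of the 10 genes in each library, in CPM per kilobase of exon on a log axis, with cKO libraries in red on the left, WT libraries in blue on the right and a line at the mean of the 3. In each gene the 3 cKO points lie below the 3 WT points, and Mael is the highest gene, at 50.1 to 56.6 in cKO and 85.9 to 96.0 in WT.

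Among the genes that make piRNAs from their precursors, the helicase gene fell. The endonuclease gene had a larger fitted fall but fewer reads and was not called. Mov10l1 (chromosome 15, 88982909 to 89055152, plus strand), whose helicase binds piRNA precursors, had 61.52, 65.63 and 63.15 CPM in cKO, against 88.78, 93.36 and 93.53 CPM in WT. The replicates were tight in both groups, and the log2 fold change was -0.53 (SE 0.06, edgeR adjusted p = 0.000151). Pld6 (chromosome 11, 59783897 to 59787645, minus strand) encodes the mitochondrial nuclease MitoPLD, which forms the 5′ ends of piRNAs. It had 1.68, 2.22 and 1.81 CPM in cKO, against 2.43, 4.24 and 2.98 CPM in WT, from 44 to 184 reads per library. The WT values spread widely, with WT replicate 2 far above the others. The log2 fold change was -0.75 (95% interval -1.27 to -0.23, edgeR adjusted p = 0.0755), and the gene was called in DESeq2 (adjusted p = 0.0459), with no filter on low counts (edgeR 0.0276) and in the edgeR fit blocked by replicate number (0.0469). It was not called in limma-voom (adjusted p = 0.11), and without WT replicate 2 the log2 fold change was -0.50 (edgeR adjusted p = 0.334). The log2 ratio of Mov10l1 to Pld6 differed by 0.18 between cKO and WT, and the groups overlapped.

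Both genes for mitochondrial anchors of the pathway fell, Asz1 more than Tdrkh. Tdrkh (chromosome 3, 94413273 to 94434668, plus strand), a Tudor domain protein needed for trimming piRNA 3′ ends in mice, had 18.74, 18.27 and 20.41 CPM in cKO, against 26.34, 28.23 and 26.25 CPM in WT. Its log2 fold change of -0.49 (SE 0.08, edgeR adjusted p = 0.00293) was the smallest of the 10. Of its exon bases, 36.7% lie opposite exons of Oaz3 on the other strand, and the counting used strand. Asz1 (chromosome 6, 18050964 to 18109061, minus strand), also called Gasz, encodes an ankyrin repeat protein of nuage. It had 7.05, 7.08 and 6.19 CPM in cKO, against 12.25, 16.51 and 16.10 CPM in WT. WT replicate 1 was the lowest WT library and was still well above every cKO library. On the log2 scale cKO over WT was -1.14 (SE 0.13, adjusted p = 0.000304 in edgeR). The log2 ratio of Asz1 to Tdrkh was 0.63 lower in cKO, with no overlap between groups (exact two-sided permutation p = 0.1, the smallest that 3 against 3 libraries allow, and adjusted p = 0.214 over 45 pairs).

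The nuage and PIWI cofactor genes Mael and Gtsf1 fell. Mael (chromosome 1, 166201201 to 166238747, minus strand) encodes Maelstrom, an HMG box protein of nuage. It had 86.74, 96.89 and 98.09 CPM in cKO, against 148.9, 166.3 and 150.6 CPM in WT. The lowest WT library was far above the highest cKO library, and the log2 fold change was -0.72 (SE 0.07, edgeR adjusted p = 4.32e-05). Gtsf1 (chromosome 15, 103402405 to 103430470, minus strand) encodes a small zinc finger protein that speeds the cutting of targets by PIWI proteins. It had 4.84, 4.79 and 5.88 CPM in cKO, against 10.40, 10.52 and 9.68 CPM in WT. All WT libraries had more than any cKO library by a wide margin, and the log2 fold change was -0.98 (SE 0.12, edgeR adjusted p = 0.000588).

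Henmt1 (chromosome 3, 108939873 to 108960774, plus strand) encodes the methyltransferase that modifies the 3′ end of piRNAs. It had 1.87, 2.13 and 2.18 CPM in cKO, against 2.88, 2.81 and 3.15 CPM in WT, from 49 to 122 reads per library. The groups did not overlap, yet the log2 fold change of -0.51 (95% interval -0.91 to -0.11) was not called (edgeR adjusted p = 0.118). That adjusted p ran from 0.103 to 0.288 over the alternatives run. Of its exon bases, 14.7% lie opposite Gm9857.

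Tex15 had the largest fall of the 10. Its protein acts in the nucleus with MIWI2 and SPOCD1 in methylation of retrotransposons, and the gene spans 33516738 to 33585582 on chromosome 8, plus strand. It had 130.7, 123.5 and 122.0 CPM in cKO, against 281.6, 300.0 and 290.7 CPM in WT. The cKO libraries were all under the lowest WT library by more than the spread within either group, and the log2 fold change was -1.21 (95% interval -1.33 to -1.10, edgeR adjusted p = 7.8e-08). The gene lies in a part of chromosome 8, from 30 to 95 Mb, where 20.5% of 507 genes tested were called in either direction, against 8.03% of the 19646 genes elsewhere. Called lower were 14.2% there, Tex15 included, and 4.7% elsewhere. Within 1 Mb of Tex15, 0 of 15 tested neighbours were called in edgeR, against 3 in DESeq2 and 6 at an unadjusted p under 0.05, and their median log2 fold change was -0.05. The part of the region in the fall of Tex15 was not tested. Within 1 Mb of each of the other 9 members, 0 to 2 neighbours were called lower and 0 to 3 higher in edgeR, among 17 to 56 tested. DESeq2 called 1 to 5 of them, and 4 to 12 had an unadjusted edgeR p under 0.05.

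Set beside the other germ cell transcripts of the same libraries, 3 members were lower and 7 were not called. For this the libraries were scaled so that the mean log2 CPM of the 14 general germ cell markers was level, and the same edgeR test was run over all genes. That scale treats the marker level as known without error. Of the 10 members 3 were then lower, against 0.724% of genes tested, and 0 were higher (0 at an unadjusted p under 0.05, and 0 in DESeq2 and in limma-voom), against 67.9% of genes tested. All genes tested had a median log2 fold change of 0.58 on this scale. Both shares over all genes carry that shift and are no like measure for germ cell genes. Of the 14 markers themselves, 4 were lower and 2 higher on this scale, so a lower call was not particular to the members. The count of lower members was 5 without cKO replicate 3, where Piwil2 and Mael were called too, and 2 without cKO replicate 2 or without WT replicate 2. Tex15 stood at a log2 fold change of -0.64 relative to the markers (95% interval -0.81 to -0.48, edgeR adjusted p = 1.51e-06). Asz1 stood at -0.58 (95% interval -0.87 to -0.28, edgeR adjusted p = 0.00131). Gtsf1 stood at -0.41 (edgeR adjusted p = 0.0156), and its call was lost without cKO replicate 2 (0.0683), without WT replicate 2 (0.0509) and with summed marker counts as the scale (0.0552).

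Mael stood at the edge of this test, at -0.16 (95% interval -0.31 to -0.01, edgeR adjusted p = 0.0562). Its log2 level minus the marker mean was 1.70, 1.67 and 1.78 in cKO, against 1.82, 1.96 and 1.84 in WT, without overlap. DESeq2 called it (adjusted p = 0.0479), and its adjusted p ran from 0.0122 to 0.437 over the alternatives run. Piwil2 and Piwil4 stood at -0.16 (95% interval -0.34 to 0.02) and -0.17 (-0.52 to 0.19), and Pld6 at -0.19 (-0.70 to 0.31). Mov10l1, Henmt1 and Tdrkh stood near the markers, at 0.03 (-0.12 to 0.18), 0.05 (-0.40 to 0.50) and 0.07 (-0.13 to 0.28), with edgeR adjusted p from 0.511 to 0.845, and each of these 3 signs flips with the undifferentiated spermatogonia markers as the scale. The markers themselves were not level with one another: Stk31 and Nxf2 stood at -0.46 and -0.30 relative to the list, and Sycp3 and Nanos3 at 0.46 and 0.48.

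**Figure D2:**
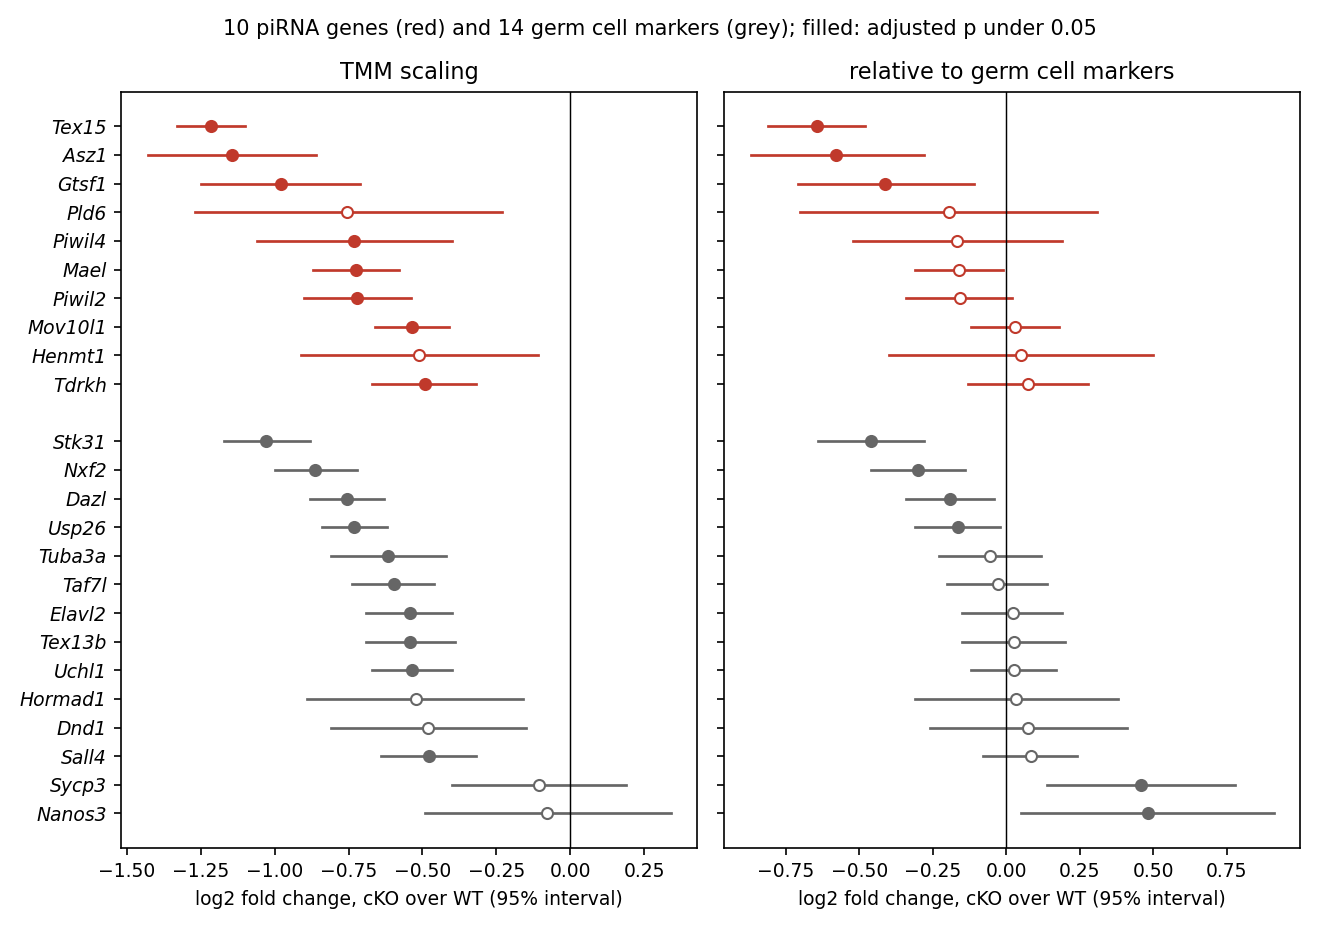
Log2 fold change of cKO over WT with its 95% interval for the 10 piRNA genes (red) and the 14 germ cell markers (grey), with TMM scaling on the left and relative to the markers on the right; filled points have an edgeR adjusted p under 0.05. Tex15, Asz1 and Gtsf1 lie left of 0 in both panels, while Mov10l1, Henmt1 and Tdrkh lie near 0 on the right.

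The members were also compared with one another as log2 ratios within each library. Of the 45 pairs, 21 had ratios that did not overlap between cKO and WT (46.7%), against 25.5% of all 203061628 pairs of genes tested. The 45 pairs share genes and are not independent, and most of the 21 held Tex15, Asz1 or Gtsf1. No pair could go below an exact two-sided permutation p of 0.1, or 0.214 after adjustment over the 45 pairs. Tex15 did not overlap in 7 of its 9 pairs, and the exceptions were the ratios of Asz1 to Tex15 (0.09, cKO minus WT) and of Pld6 to Tex15 (0.50). The ratio of Tdrkh to Tex15 had the largest difference of the 45, 0.72. Ratios among Mov10l1, Henmt1 and Tdrkh differed by at most 0.04, and those among Piwil2, Piwil4, Mael and Pld6 by at most 0.01. Pld6, with the widest spread, had 0 pairs without overlap, and Piwil4 had 1.

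**Figure D3:**
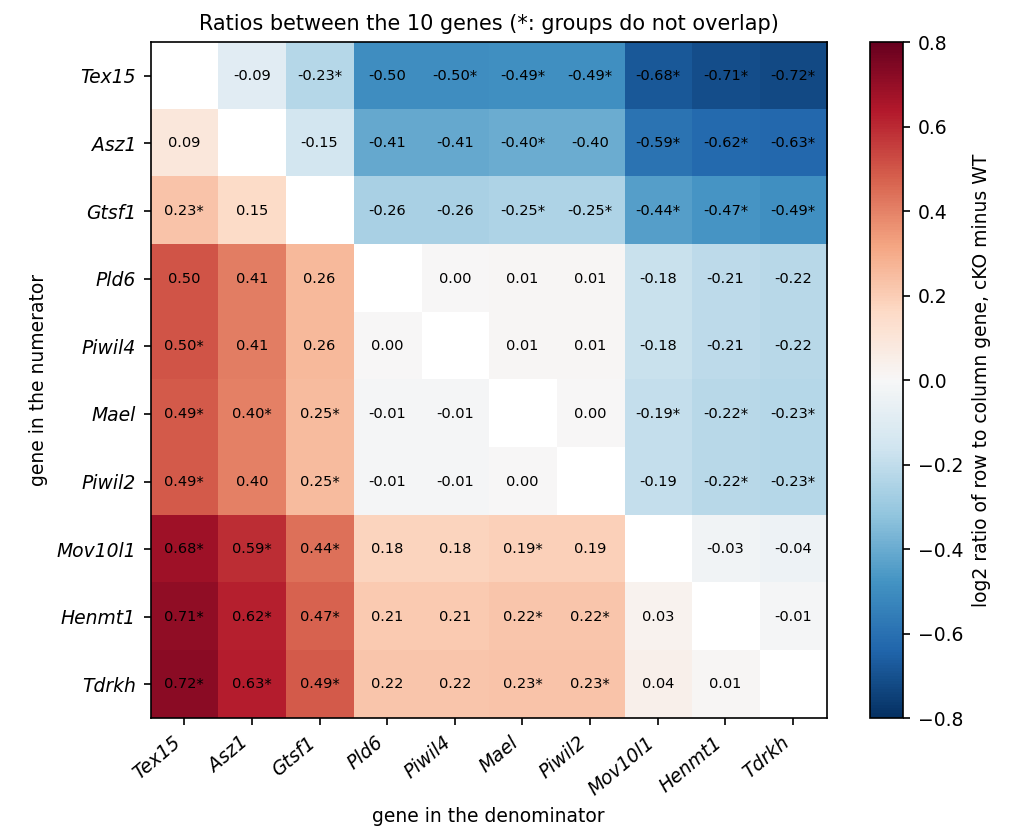
Difference between cKO and WT in the mean log2 ratio of the row gene to the column gene, with blue where the row gene is relatively lower in cKO, red where it is higher, and a star where the 3 cKO and 3 WT ratios do not overlap. The rows of Tex15, Asz1 and Gtsf1, at the top, are blue against Mov10l1, Henmt1 and Tdrkh, by 0.44 to 0.72.

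Levels per kilobase of exon, which allow genes to be set roughly against each other, differed widely between the genes in both groups. The length used is that of all annotated exons of a gene merged, not of the transcript expressed. The order and shares below depend on it. Mael was the highest, at 54.2 ± 3.6 CPM per kilobase in cKO and 89.6 ± 5.5 in WT (SD, n = 3 each). Tex15 came next but one in cKO, at 13.0 ± 0.48, and next in WT, at 30.2 ± 0.95, while Mov10l1 came next in cKO, at 15.2 ± 0.50, and next but one in WT, at 22.0 ± 0.64. Piwil2 (7.23 ± 0.84 in cKO and 11.9 ± 0.58 in WT) and Gtsf1 (3.72 ± 0.44 and 7.34 ± 0.33) followed in both groups. Tdrkh was sixth in cKO, at 3.12 ± 0.18, and Asz1 sixth in WT, at 5.29 ± 0.83, where its libraries overlapped those of Tdrkh at 4.39 ± 0.18. Pld6 (1.08 ± 0.16 and 1.83 ± 0.53), Henmt1 (0.77 ± 0.06 and 1.10 ± 0.07) and Piwil4 (0.63 ± 0.04 and 1.05 ± 0.12) came last, and Henmt1 and Piwil4 overlapped in WT. Neighbours in the order did not otherwise overlap. The 10 genes summed to 96.0 to 105 CPM per kilobase in cKO and 169 to 183 in WT. The share of Tex15 in that sum was 12.9% ± 1.1 in cKO and 17.3% ± 0.28 in WT (SD, n = 3 each). The share of Mov10l1 was 15.3%, 15.2% and 14.4% in cKO, against 12.6%, 12.2% and 13.0% in WT.

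Other genes of the pathway were read from a list of 29, of which 28 were in the table (Tdrd15 was not matched) and 26 passed the filter. In edgeR 14 of the 26 fell and 0 rose (1 at an unadjusted p under 0.05, 0 in DESeq2 and 0 in limma-voom), against 4.94% and 3.4% of genes tested. The median log2 fold change was -0.52. The count of genes that fell was 9 without WT replicate 1 or without WT replicate 2 and 7 without WT replicate 3. Lower calls over all genes tested also dropped in these fits, from 996 to 471, 387 and 510 in the same order. Ddx4, the Vasa helicase of nuage, had 52.95, 55.84 and 50.73 CPM in cKO, against 110.7, 114.9 and 104.6 CPM in WT (-1.05 on the log2 scale, SE 0.06, adjusted p = 9.69e-07 in edgeR). The groups were far apart.

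Several Tudor domain genes of the list fell, by different amounts. Tdrd1, a partner of MILI, had a log2 fold change of -0.92, Rnf17 -0.86, the helicase gene Tdrd9 -0.76, Tdrd12 -0.45, Tdrd7 -0.42 and Tdrd5 -0.36, all called in edgeR. The cochaperone gene Fkbp6 (-0.75), the MIWI gene Piwil1 (-0.71), the primary biogenesis gene Gpat2 (-0.67), the trimmer nuclease gene Pnldc1 (-0.70) and Exd1 (-0.86), a TDRD12 partner, fell as well. So did genes of the nuclear branch, Spocd1 (-1.17, SPOCD1 being a partner of TEX15 and MIWI2) and Morc1 (-0.51). With single libraries left out in turn, the calls of Piwil1, Tdrd5, Tdrd12, Exd1, Pnldc1 and Spocd1 were lost in 3 or 4 of the 6 fits and that of Tdrd7 without WT replicate 3 alone. Relative to the germ cell markers, Ddx4 (-0.48), Tdrd1 (-0.36) and Rnf17 (-0.30) were lower, with edgeR adjusted p of 1.79e-05, 0.000824 and 0.00643, and 8 genes of the list were higher, against 67.9% of genes tested.

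Of the list, 12 genes were not called in edgeR. Prmt5, the methyltransferase that marks PIWI arginines for Tudor proteins, had a log2 fold change of 0.06, its partner Wdr77 0.02, the deadenylase gene Parn -0.08 and the RNA helicase gene Ddx39 -0.18. Mov10, the widely expressed relative of Mov10l1, had 84.03, 119.8 and 138.5 CPM in cKO, against 103.6, 105.4 and 114.6 CPM in WT. Its cKO libraries straddled the WT range (log2 fold change 0.08, edgeR adjusted p = 0.768), and without cKO replicate 1 it was called higher (0.26, edgeR adjusted p = 0.00556). Mybl1, whose product A-MYB switches on piRNA genes at the pachytene stage in mice, had a log2 fold change of 0.13 (edgeR adjusted p = 0.367). Btbd18 (-0.52), Adad2 (-0.88), Kif17 (-0.20), Dnmt3l (-0.89) and Dnmt3c (0.29) were not called in edgeR, and Adad2 was in DESeq2 (adjusted p = 0.024). Tdrd6, a Tudor gene of late spermatogenic granules, had 1.98, 1.75 and 1.35 CPM in cKO, against 0.95, 0.78 and 1.03 CPM in WT (log2 fold change 0.87, edgeR adjusted p = 0.0787). Gtsf1l and Gtsf2, relatives of Gtsf1, had 0 to 3 and 0 reads per library and were not tested.

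**Figure D4:**
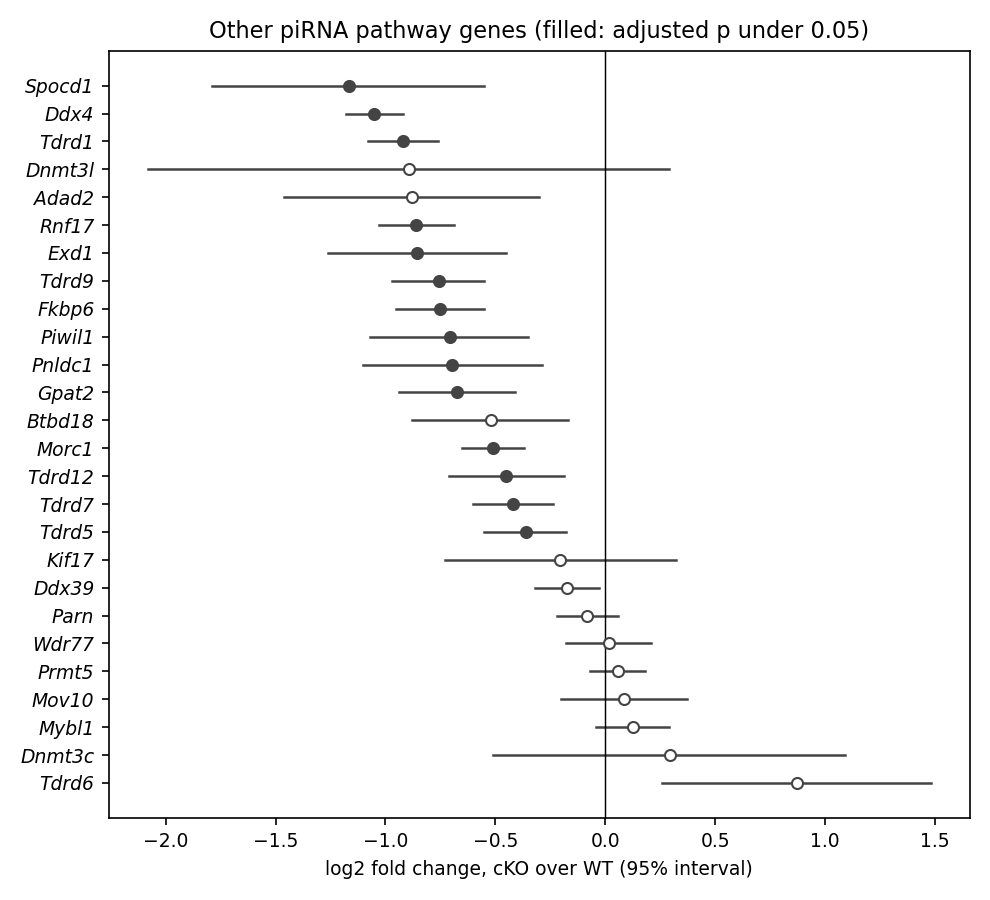
Log2 fold change of cKO over WT with its 95% interval for the 26 other piRNA pathway genes tested, in order, with filled points for an edgeR adjusted p under 0.05. The 14 filled points lie between -1.17 (Spocd1) and -0.36 (Tdrd5), and the only interval wholly above 0 is that of Tdrd6, which was not called.

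The mean pattern of the 10 genes over the 6 libraries was set against 15716 others that averaged 1 CPM or more. The closest were Rasd2, Usp26, Zdhhc23, Epb41l4b and Mapk10, with root mean square differences in centred log2 CPM of 0.03 to 0.05 and log2 fold changes between -0.78 and -0.72. Usp26 is among the germ cell markers. Within the list Mael followed the mean of the members most closely (0.04), and Tex15 (0.23), Asz1 (0.22) and Pld6 (0.21) strayed furthest from it.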

How the data were processed

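Whole testes of day 4 mice gave 3 cKO and 3 WT libraries. The authors deposited counts, not normalized. Per the file headers they came from featureCounts 1.6.4 on GENCODE M18, on the gene's strand, in a command that sets no option to count multi-mapped or overlapping reads. The submitters' processing notes name cutadapt, HISAT2 and GRCm38.p5. The labels' protocols describe random and poly(T) priming with transcript depletion, while the molecule field names polyA RNA. Other deposited columns, such as exon length in bases, served only to put levels per kilobase, and 0 columns lacked a sample. Symbols came from GENCODE M21 (54165 of 54232 genes matched).

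Genes were kept by filterByExpr (minimum count 10, minimum total 15) and scaled by TMM. Groups were compared with the edgeR 4.0.16 quasi-likelihood test in R 4.3.3 (two-sided, Benjamini-Hochberg over all genes kept, threshold 0.05), and standard errors were taken from its F statistic. Log2 CPM for ratios and marker means used a prior count of 2. Alternatives were DESeq2 1.42.0, limma 3.58.1 (voom), other scalings and filters, a robust fit, a replicate block, other marker scales and leaving out each library. The procedure was tested on simulated data. Member transcripts were aligned to all GENCODE M21 transcripts (minimap2), and matches of at least 90% identity over at least 30% of a transcript were found only for the 2 antisense genes named, Gm9857 and Oaz3. Exact permutation tests are two-sided. The members and lists were chosen with earlier results of these data known. Named are all members, all genes of the wider list with a call or at least 1 CPM, Dis3l2, and the 5 genes most like the members' mean; Dnmt3l, Gtsf1l, Gtsf2, Stk31, Nxf2, Sycp3 and Nanos3 were named after their values were seen.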

Additional observations from a re-analysis of the deposited data

How the results depend on the processing

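Fitted log2 fold changes of the 10 members stayed below 0 under every alternative run with TMM or another whole-library scaling, and 7 to 9 members were called lower (7 to 8 with single libraries left out, 9 in DESeq2, with no filter and with the replicate block). Relative to the germ cell markers, 3 members were called lower, and 2 to 5 with single libraries left out. With all 3 germ cell marker lists 5 were called, and 5 with the undifferentiated spermatogonia markers, the added calls being Piwil2 and Mael. With summed marker counts 2 were called, the call of Gtsf1 being lost. Signs that changed in that test were all of uncalled genes: Mov10l1 was -0.03 with no filter, -0.0058 with all 3 lists and -0.05 with the undifferentiated markers, Henmt1 -0.02 with no filter and -0.04 with the undifferentiated markers, Tdrkh -0.01 with the same markers, and Pld6 ran from -0.36 to 0.05 with single libraries left out. In the wider list the count of lower calls ran from 7 to 14, that of higher calls from 0 to 1, with single libraries left out. There Dnmt3c ran from -0.17 to 0.60, Mov10 from -0.08 to 0.26, Wdr77 from -0.06 to 0.08 and Dis3l2 from -0.06 to 0.01. Wdr77 was -0.0026 with total count alone. Pairs of members without overlap numbered 21, and 23 to 25 with single libraries left out. Fewer libraries then have to separate, so that rise is no sign of stability. Over all genes, 996 were called lower and 685 higher, against 1705 and 1670 without cKO replicate 1 and 387 and 236 without WT replicate 2, the extremes of the 6 such fits. The cause of these changes was not tested. Correlations of deviations between cKO and WT were 0.031, 0.013 and 0.065 for samples that share number 1, 2 or 3. They ran from -0.054 to 0.023 for unlike numbers. Whether the replicate numbers pair the samples is not settled by these values. With the replicate block 9 members and 15 wider genes were called lower, and 4 members relative to the markers. Of the uncalled members, Pld6 had 44 to 184 and Henmt1 49 to 122 reads per library, and the part of depth in the missing calls was not tested.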
